A study of Danio rerio with 6 samples.

Results

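The 5 genes described here take cortisol from its first step to its removal: *star*, *cyp11a1* and *cyp17a2* belong to steroid synthesis, and *hsd11b2* and *hsd20b2* to cortisol inactivation. They were chosen by symbol, with earlier results of these data known. Each symbol was tied to 1 Ensembl gene identifier in the supplementary gene tables of the study. The exon count table holds 31388 genes, of which 26544 had enough counts to be tested, among them all 5. RNA from whole zebrafish larvae (*Danio rerio*, AB strain) was measured by RNA-seq in 3 pools of *fdx1b*-/- larvae and 3 pools of their siblings. The labels name the second genotype only as siblings, and the methods call these wild type. Each pool held 20 larvae at 5 dpf (days post-fertilization), sampled at circadian time ZT 3, and the columns of all 6 pools carry the label CTR, which the study uses for vehicle controls in its drug experiments. Whether these pools received vehicle is not given in the sources used here. The *fdx1b*-/- larvae carry a disrupted *fdx1b*, a mitochondrial ferredoxin gene whose zebrafish paralog is *fdx1*. The disruption is present throughout the body, although the study describes expression of *fdx1b* as specific to steroidogenic tissues. The larvae were picked by their impaired visual background adaptation, so the genotypes were separated by a phenotype rather than by genotyping each larva. The exon counts summed to between 37099965 and 43594050 per *fdx1b*-/- library, and to between 18247332 and 49908095 per sibling library, with sibling replicate 2 the shallowest.

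Cortisol is the principal glucocorticoid of teleosts, and its synthesis takes place in interrenal cells of the head kidney. The StAR protein brings cholesterol to the inner mitochondrial membrane, Cyp11a1 cleaves its side chain to pregnenolone with electrons passed on by ferredoxin, and a chain of further enzymes that includes Cyp17a2 leads to cortisol. Peripheral tissues remove the hormone in consecutive steps, the oxidation of cortisol to cortisone by Hsd11b2 and the reduction of cortisone at its side chain by Hsd20b2. The comparison of the genotypes addresses how the transcripts of these steps stand in larvae whose steroid synthesis lacks its mitochondrial electron donor.

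The transcripts at opposite ends of the pathway moved in opposite directions. *star*, at the entry of synthesis, was 1.5-fold higher in *fdx1b*-/- larvae than in siblings, and *hsd20b2*, at the exit of inactivation, stood at 0.574 times the sibling level. Between them, *cyp17a2* had a fold change of 1.66 and *hsd11b2* of 1.11 that did not pass the threshold, and *cyp11a1* was too sparsely counted to place. The threshold for a call combined an adjusted *p*-value no higher than 0.01 in the quasi-likelihood test of edgeR with a log2 fold change of 0.25 or more in either direction. Of the 5 genes, 2 passed it, 1 higher and 1 lower. Over all genes tested the share was 1.12% (296 of 26544), with 0.618% higher and 0.497% lower. Because the 5 genes were chosen with earlier results of these data known, their share is no test against this background. All *fdx1b*-/- pools lay above all sibling pools for 3 of the 5 genes (12.9% of all genes tested) and below them for 1 (13.0%). The median log2 fold change over all genes tested was -0.0028, so the scaling of the libraries was centred near 0.

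**Figure D1:**
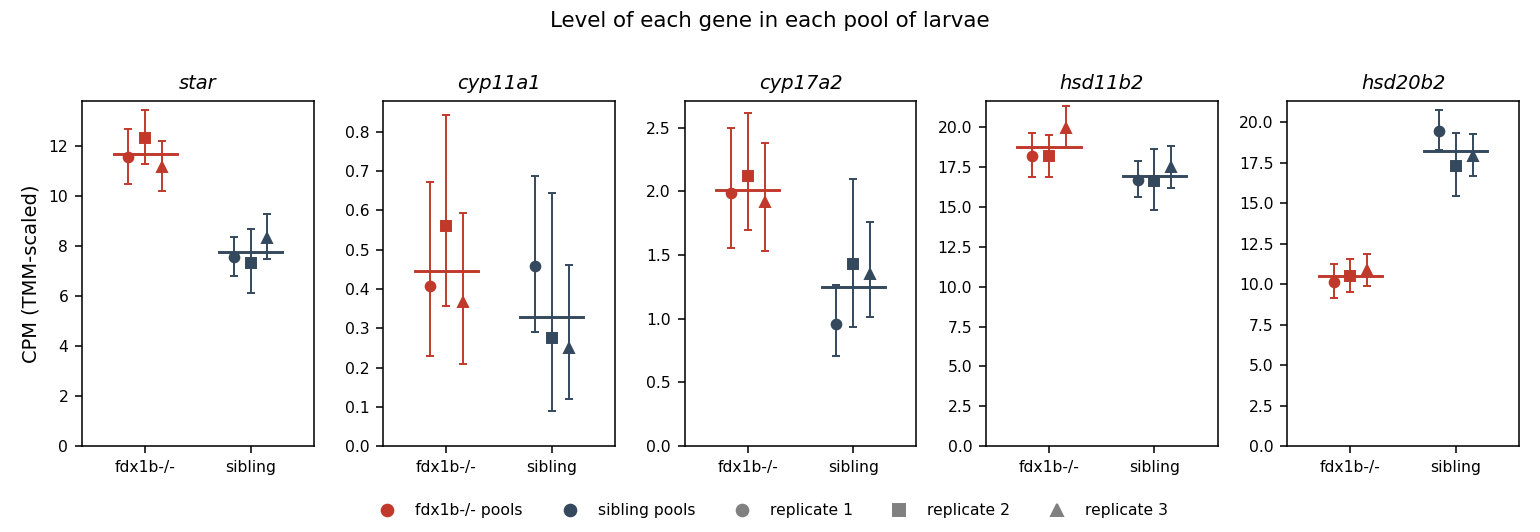
Level of each gene in CPM (counts scaled by library size and TMM factor), 1 point per pool, with *fdx1b*-/- pools on the left of each panel and sibling pools on the right; horizontal lines are group means and bars are 95% Poisson intervals of the counts, which cover counting error only. The *star* pools sit between 11.2 and 12.3 CPM in *fdx1b*-/- larvae and between 7.33 and 8.34 CPM in siblings, the *hsd20b2* pools show the opposite order, and the *cyp11a1* pools overlap.

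*star* (ENSDARG00000006137, exon length 1372 bases) encodes the carrier of cholesterol into mitochondria, the rate-limiting step of acute steroid synthesis. It had 424, 505 and 488 reads in the *fdx1b*-/- pools, against 379, 133 and 333 in the sibling pools. As CPM, the count scaled to a common library size, these were 11.5, 12.3 and 11.2 CPM in *fdx1b*-/- larvae, against 7.56, 7.33 and 8.34 CPM in siblings. The lowest *fdx1b*-/- pool lay clearly above the highest sibling pool, and the pools of each genotype were close to one another. The mean was 11.7 ± 0.589 CPM in *fdx1b*-/- larvae and 7.74 ± 0.527 CPM in siblings (SD, n = 3 each). The coefficient of variation between pools was 5.05% in *fdx1b*-/- larvae and 6.81% in siblings, close to the 4.61% and 6.54% that counting error alone would give. The log2 fold change was 0.59 (SE 0.0881, 95% interval 0.39 to 0.78), with an adjusted *p*-value of 0.00445 by edgeR, and *star* therefore rose. The call changed with the libraries used although the size changed little. Without *fdx1b*-/- replicate 1, 2 or 3 the adjusted edgeR *p*-value was 0.0242, 0.0327 or 0.0202, and without sibling replicate 1 it was 0.0383. The log2 fold change over all 6 such fits stayed between 0.55 and 0.65. Calls over all genes fell in the same 4 fits, from 296 to 110, 120, 110 and 109. They rose to 494 and 622 without sibling replicate 2 and 3, where *star* kept its call.

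*cyp11a1* encodes the mitochondrial cytochrome P450 that cleaves the side chain of cholesterol, the enzyme of this set that uses ferredoxin. Its locus in the study's tables (ENSDARG00000002347, exon length 2176 bases) had 15, 23 and 16 reads in the *fdx1b*-/- pools, against 23, 5 and 10 in the sibling pools. These were 0.408, 0.561 and 0.366 CPM in *fdx1b*-/- larvae, against 0.459, 0.276 and 0.2503 CPM in siblings. The highest sibling pool lay inside the *fdx1b*-/- range, so the genotypes overlapped. The log2 fold change was 0.37 (SE 0.349, 95% interval -0.40 to 1.13), with an adjusted *p*-value of 0.603 by edgeR. Without 1 library the log2 fold change ranged from 0.16, without sibling replicate 3, to 0.77, without sibling replicate 1. At this depth the interval ran from a fold change of 0.759 to one of 2.19, so a difference of the size seen for *star* was not detectable. The pools varied by 23.1% in *fdx1b*-/- larvae and 34.6% in siblings, where counting error alone would give 23.6% and 30.8%.

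A second locus carries the symbol CYP11A1 in the gene name table (ENSDARG00000092696, exon length 1785 bases), and it was counted more deeply. The list of steroidogenic genes also held *cyp11a2*, a symbol that matched no locus, and whether this second locus is that gene was not settled here, so the values below may be those of a paralog. It had 43, 79 and 92 reads in *fdx1b*-/- pools and 60, 24 and 54 in sibling pools. These were 1.17, 1.93 and 2.10 CPM in *fdx1b*-/- larvae, against 1.196, 1.32 and 1.35 CPM in siblings. Here 2 of the *fdx1b*-/- pools lay above every sibling pool and replicate 1 lay below them all. Its log2 fold change was 0.44 (SE 0.226) with an adjusted *p*-value of 0.310 by edgeR. Because reads of close paralogs can be assigned to either copy or lost as not unique, both loci were also summed, a step added after the data had been seen. The sum was 1.58, 2.49 and 2.47 CPM in *fdx1b*-/- larvae, against 1.655, 1.599 and 1.602 CPM in siblings. *fdx1b*-/- replicate 1 again lay just below the sibling pools and the other 2 above, and the log2 fold change of 0.43 had an adjusted *p*-value of 0.253 by edgeR. Neither locus, nor their sum, was thus called.

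*cyp17a2* (ENSDARG00000053966, exon length 1554 bases) encodes a cytochrome P450 of the endoplasmic reticulum, which hydroxylates progestogens on the way to cortisol and draws its electrons from P450 oxidoreductase rather than from ferredoxin. It had 73, 87 and 84 reads in the *fdx1b*-/- pools, against 48, 26 and 54 in the sibling pools. These were 1.99, 2.12 and 1.92 CPM in *fdx1b*-/- larvae, against 0.957, 1.43 and 1.35 CPM in siblings. All *fdx1b*-/- pools lay above all sibling pools, and sibling replicate 1 was the lowest of the 6. The log2 fold change of 0.73 (SE 0.190, 95% interval 0.31 to 1.14) was the highest of the 5 genes, but its adjusted *p*-value of 0.0561 by edgeR missed the threshold. The sibling pools varied by 20.4%, against 16.8% from counting error alone, and the *fdx1b*-/- pools by 5.10%, less than the 11.1% of counting error. Leaving out each library in turn gave log2 fold changes between 0.54, without sibling replicate 1, and 0.83, without sibling replicate 3, and none of these 6 fits passed the threshold, with adjusted edgeR *p*-values between 0.0344 and 0.210.

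*hsd11b2* (ENSDARG00000001975, exon length 2587 bases) encodes the dehydrogenase that oxidises cortisol to inactive cortisone. It had 669, 745 and 873 reads in the *fdx1b*-/- pools, against 838, 302 and 698 in the sibling pools. These were 18.2, 18.2 and 20.0 CPM in *fdx1b*-/- larvae, against 16.7, 16.7 and 17.5 CPM in siblings. The *fdx1b*-/- pools were again all above the sibling pools, but by a narrow margin. The log2 fold change was 0.15 (SE 0.0692, 95% interval -0.0042 to 0.30), with an adjusted edgeR *p*-value of 0.270, and the gene was not called. The interval of the fold change, 0.997 to 1.23, leaves out a change as large as the one measured for *star*.

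*hsd20b2* (ENSDARG00000031336, exon length 2925 bases) encodes the hydroxysteroid dehydrogenase that, in zebrafish, acts on the cortisone made by Hsd11b2 and yields a product for excretion. It had 373, 431 and 475 reads in the *fdx1b*-/- pools, against 978, 314 and 717 in the sibling pools. These were 10.2, 10.5 and 10.9 CPM in *fdx1b*-/- larvae, against 19.5, 17.3 and 17.95 CPM in siblings. Every *fdx1b*-/- pool lay far below every sibling pool. The mean was 10.5 ± 0.354 CPM in *fdx1b*-/- larvae and 18.3 ± 1.13 CPM in siblings (SD, n = 3 each). The log2 fold change was -0.80 (SE 0.0774, 95% interval -0.97 to -0.63), with an adjusted *p*-value of 0.000258 by edgeR, and it ranked 42 by *p*-value among all genes tested, where *star* ranked 189. *hsd20b2* thus fell, and the call was kept in all 6 fits that left out 1 library, with log2 fold changes between -0.83 and -0.75 and adjusted edgeR *p*-values of at most 0.00377. In RNA from whole larvae, changes in cell number and RNA per cell cannot be told apart, for this gene as for the other 4. The study reports an enlarged interrenal gland in *fdx1b*-/- larvae, measured by in situ hybridization of *cyp17a2*. Its part in the values given here was not tested.

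The order of the genes by level was compared on CPM divided by exon length (CPM per kb). In *fdx1b*-/- larvae *star* was the most abundant, at 8.51 ± 0.430 CPM per kb, followed by *hsd11b2* at 7.26 ± 0.395, *hsd20b2* at 3.59 ± 0.121, *cyp17a2* at 1.29 ± 0.0659 and *cyp11a1* at 0.204 ± 0.0471 CPM per kb (SD, n = 3). Each gene stood above the next in 3 of 3 pools. In siblings *hsd11b2* came first, at 6.55 ± 0.178 CPM per kb, then *hsd20b2* at 6.24 ± 0.385, *star* at 5.64 ± 0.384, *cyp17a2* at 0.803 ± 0.164 and *cyp11a1* at 0.151 ± 0.0522 CPM per kb (SD, n = 3). The leading genes were close together there. *hsd11b2* exceeded *hsd20b2* in 2 of 3 sibling pools only, so these neighbours did not differ beyond their spread, and *hsd20b2* exceeded *star* in 3 of 3 pools although the ranges of both genes over the pools overlapped. The carrier and both inactivating enzymes thus lay within a narrow band in siblings and were spread out in *fdx1b*-/- larvae, where *star* led and *hsd20b2* fell behind. The cytochromes P450 stood last in both genotypes, with the *cyp11a1* locus ENSDARG00000002347 lowest on this scale in every pool. The second CYP11A1 locus, left out of this order, averaged 0.971 CPM per kb in *fdx1b*-/- larvae and 0.723 in siblings. In sibling replicate 1 it stood at 0.670 CPM per kb, above *cyp17a2* at 0.616, so the lowest place depends on the locus used.

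**Figure D2:**
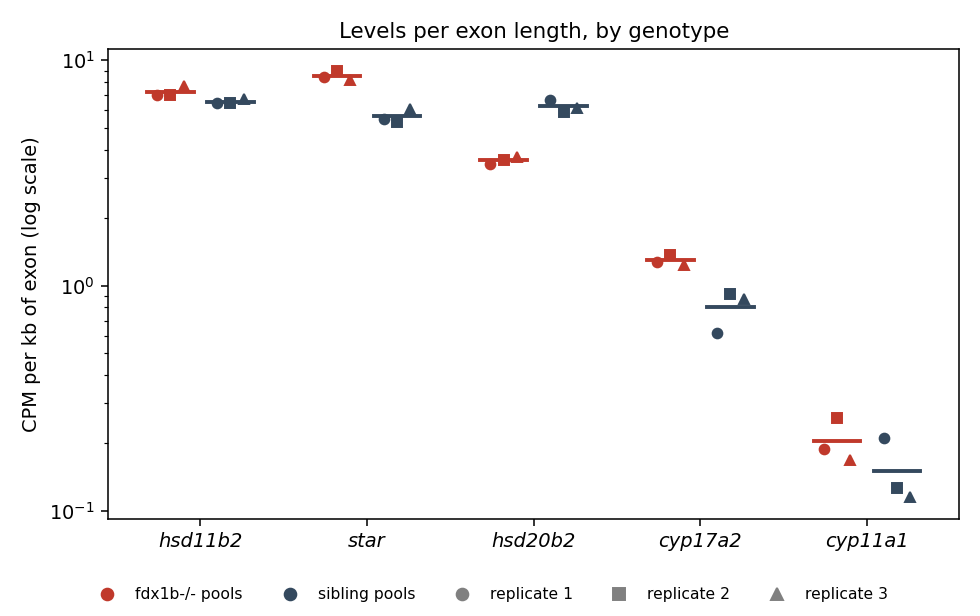
Levels of the 5 genes on a log axis in CPM per kb of exon, 1 point per pool, with *fdx1b*-/- pools left of sibling pools for each gene and group means as horizontal lines. *star* leads in *fdx1b*-/- larvae at 8.51 CPM per kb, whereas *hsd11b2*, *hsd20b2* and *star* lie between 5.64 and 6.55 CPM per kb on average in siblings.

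Ratios of the counts of 2 genes within a pool do not depend on how the libraries were scaled, and they place the genes relative to each other. The 10 possible pairs were compared by an exact two-sided permutation test over the 6 pools, which cannot go below p = 0.1, so no pair could pass a threshold of 0.05. The pair of consecutive inactivation steps changed order in read counts, which are not corrected for exon length (2587 bases for *hsd11b2*, 2925 for *hsd20b2*). Per kb of exon, *hsd11b2* had the higher mean in both genotypes, at 7.26 against 3.59 CPM per kb in *fdx1b*-/- larvae and 6.55 against 6.24 in siblings. There were 1.79, 1.73 and 1.84 *hsd11b2* reads for each *hsd20b2* read in the *fdx1b*-/- pools, against 0.857, 0.962 and 0.974 in the sibling pools. *hsd11b2* was thus the more counted gene of the pair in every *fdx1b*-/- pool and the less counted one in every sibling pool. The log2 ratio averaged 0.84 in *fdx1b*-/- larvae and -0.11 in siblings, a difference of 0.94 (exact permutation p = 0.1, the smallest possible, and 0.167 adjusted over the 10 pairs).

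The ends of the pathway were further apart. There were 1.14, 1.17 and 1.03 *star* reads per *hsd20b2* read in the *fdx1b*-/- pools, against 0.388, 0.424 and 0.465 in the sibling pools. In reads, *star* went beyond *hsd20b2* in each *fdx1b*-/- pool and stayed well below it in each sibling pool, a difference in mean log2 ratio of 1.39. The differences in log2 ratio to *hsd20b2* were 1.49 for *cyp17a2* and 1.22 for *cyp11a1*, and the genotypes did not overlap in any of the 4 ratios to *hsd20b2*. These 4 ratios share *hsd20b2*, which was lower in every *fdx1b*-/- pool, so they are not separate results. The pools of *cyp11a1* overlapped when taken alone. The genotypes did not overlap in the ratio of *star* to *hsd11b2* (difference 0.44) or of *cyp17a2* to *hsd11b2* (difference 0.55) either. Each of these 6 pairs had the smallest possible exact permutation p of 0.1 (0.167 adjusted). How often other pairs of genes separate the genotypes was not computed.

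The genes of synthesis were not separated from one another. The log2 ratio of *star* to *cyp17a2* was 2.53 in each of the *fdx1b*-/- pools, against 2.97, 2.33 and 2.61 in the sibling pools. In *fdx1b*-/- pools counting error alone would give a variation of 4.61% for *star* and 11.1% for *cyp17a2*. The 3 ratios are closer than that, so their closeness does not measure how tightly the 2 genes go together. The *fdx1b*-/- pools lay within the sibling range, and the mean difference of -0.11 had an exact permutation p of 0.7. The ratios of *star* to *cyp11a1* (difference 0.16, exact permutation p = 0.7), of *cyp11a1* to *cyp17a2* (difference -0.27, p = 0.9) and of *cyp11a1* to *hsd11b2* (difference 0.28, p = 0.4) overlapped as well. Without sibling replicate 1 the first 3 of these 4 differences changed sign, to 0.06 for *star* to *cyp17a2*, -0.10 for *star* to *cyp11a1* and 0.16 for *cyp11a1* to *cyp17a2*, so their direction rested on that pool.

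**Figure D3:**
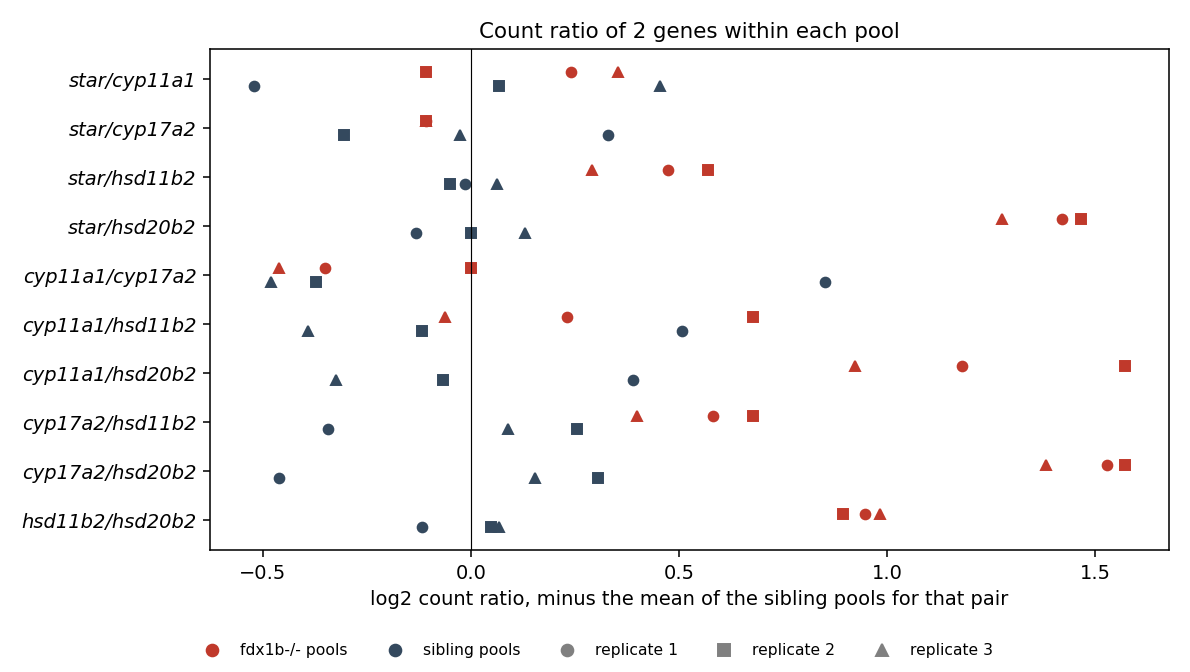
Log2 count ratio of the 10 pairs of genes in each pool, minus the mean of the sibling pools for the same pair, with *fdx1b*-/- pools drawn above sibling pools in each row. The 4 pairs with *hsd20b2* show *fdx1b*-/- pools to the right of all sibling pools, by 0.94 to 1.49 on average. The 3 *fdx1b*-/- points of *star* to *cyp17a2* lie on top of each other, closer than counting error alone would place them, so their closeness is not a result.

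The other genes of interrenal steroid synthesis were counted from a list that also held *star*, *cyp11a1* and *cyp17a2* and comprised 15 tested loci. The symbol *cyp11a2* on that list matched no locus. Of these, 1 was called higher, *star*, and 0 lower, while 11 of 15 had a log2 fold change above 0 (49.3% of all genes tested) and the median was 0.32. Without the 3 genes named above, 12 loci remained, of which 0 passed the edgeR threshold and 0 had an adjusted *p*-value below 0.05 (3.89% of all genes tested reached that limit), 8 were above 0, and the median log2 fold change was 0.24. At an unadjusted edgeR *p*-value below 0.05 there was 1 higher and 0 lower (19.6% of all genes tested passed that limit in either direction). The Wald test of DESeq2 called 0 of the 12 but gave no adjusted *p*-value for 8 of them, and it called 4.45% of all genes to which it gave one. *cyp17a1*, the paralog of *cyp17a2*, was the one among them whose pools did not overlap. It had 3.54, 3.49 and 3.38 CPM in *fdx1b*-/- larvae, against 2.87, 2.65 and 2.78 CPM in siblings, all *fdx1b*-/- pools higher, with a log2 fold change of 0.32 (adjusted edgeR *p*-value 0.174). *cyp21a2* and *cyp11c1*, which encode the enzymes of the last hydroxylations to cortisol, had log2 fold changes of 0.37 and 0.48 with overlapping pools. *mc2r*, the receptor for ACTH, had 0.354, 0.0732 and 0.183 CPM in *fdx1b*-/- larvae, against 0.279, 0.165 and 0.2503 CPM in siblings, and 3 counts correspond to between 0.0598 and 0.165 CPM in these libraries. It therefore sat at or near the limit of detection in a pool of each genotype. All 15 loci were detected, most of them at a few CPM or less.

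Among 23 tested steroid dehydrogenases and reductases, the class to which *hsd11b2* and *hsd20b2* belong, 0 were called higher and 1 lower, *hsd20b2*, by edgeR (1.12% of all genes in either direction) and by DESeq2 alike, although DESeq2 gave no adjusted *p*-value for 2 of them. At an unadjusted edgeR *p*-value below 0.05 there were 5 higher and 2 lower, beside 19.6% of all genes. The median log2 fold change of the list was 0.04. *hsd17b1*, which in mammals reduces estrone to estradiol, was the other gene of the list whose adjusted *p*-value was below 0.05. It had 25.7, 26.2 and 26.4 CPM in *fdx1b*-/- larvae, against 30.6, 31.4 and 31.9 CPM in siblings, lower in all *fdx1b*-/- pools, with a log2 fold change of -0.26 (adjusted edgeR *p*-value 0.0251). *hsd11b1la*, a relative of the mammalian enzyme that regenerates cortisol, had a log2 fold change of 0.18 (adjusted edgeR *p*-value 0.228) with overlapping pools.

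**Figure D4:**
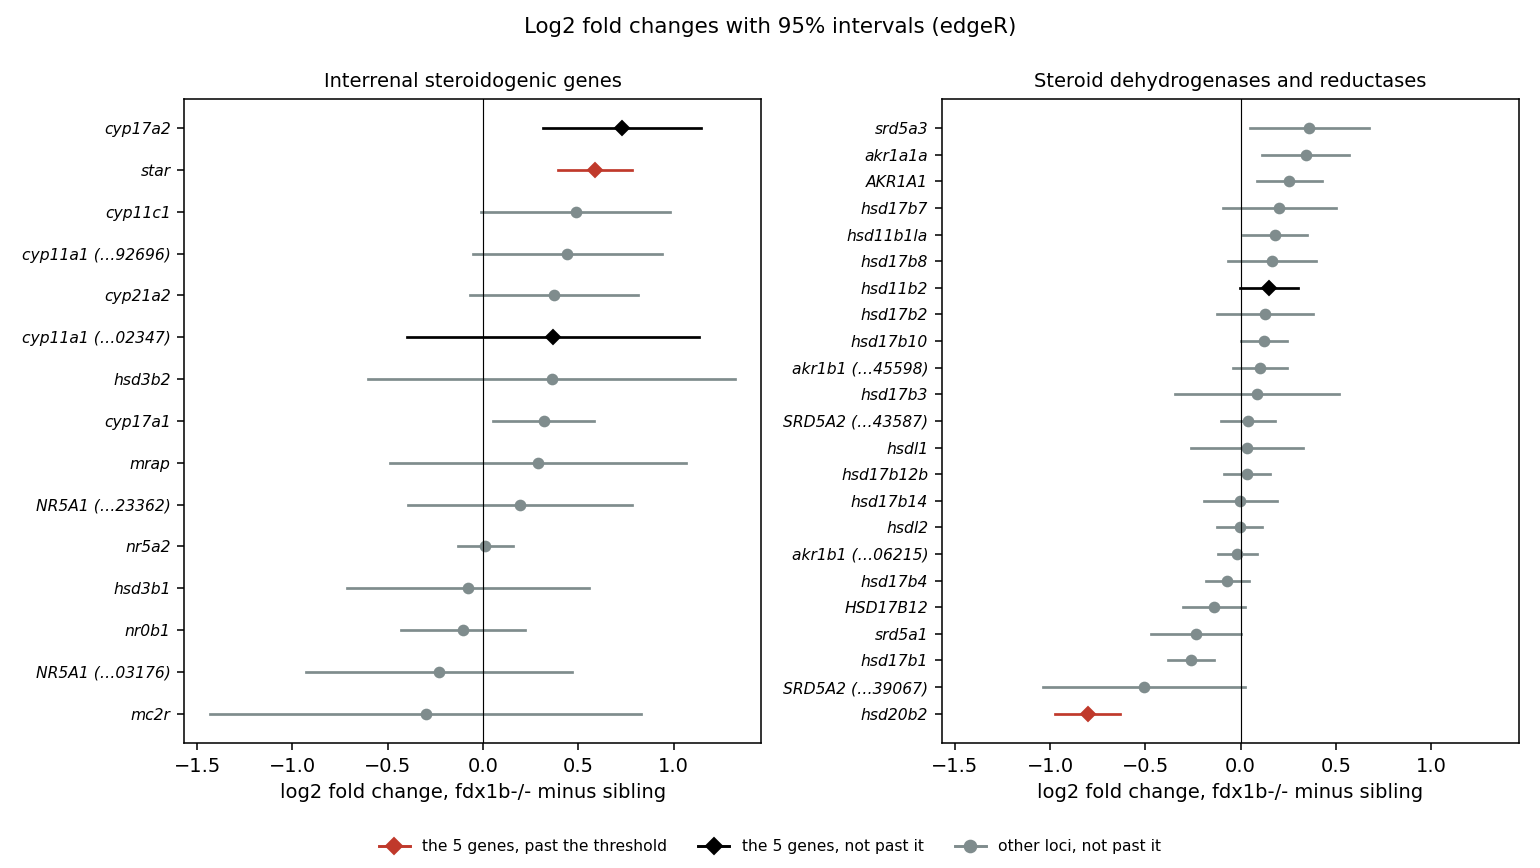
Log2 fold change (*fdx1b*-/- minus sibling) with its 95% interval from edgeR for 15 interrenal steroidogenic loci on the left and 23 steroid dehydrogenases and reductases on the right, with digits of the Ensembl identifier where loci share a symbol. *star* at 0.59 and *hsd20b2* at -0.80, in red, are the only loci drawn that passed the threshold.

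The supply of cholesterol and of electrons adjoins the steps of *star*, *cyp11a1* and *cyp17a2*. Of 29 tested genes of cholesterol uptake, storage and transport, 1 was called higher and 0 lower by edgeR, with a median log2 fold change of 0.04, beside 1.12% of all genes called. At an unadjusted *p*-value below 0.05 there were 6 higher and 5 lower (19.6% of all genes), and DESeq2 called 1 higher and 2 lower (4.45% of all genes). The called gene, *npc1*, encodes a protein that exports cholesterol from lysosomes, and had 75.3, 72.2 and 76.6 CPM in *fdx1b*-/- larvae, against 59.4, 56.2 and 57.4 CPM in siblings. It was higher in all *fdx1b*-/- pools, with a log2 fold change of 0.37 (adjusted edgeR *p*-value 0.00230). At an adjusted edgeR *p*-value below 0.05 this list had 2 genes higher and 3 lower (3.89% of all genes). Among the latter, *abca1b* and *npc1l1* had log2 fold changes of -0.38 and -0.32 (adjusted edgeR *p*-values 0.0102 and 0.0352). Both were lower in all *fdx1b*-/- pools and called lower by DESeq2. Of 24 tested genes of cholesterol synthesis, 1 was called higher, *fdps* of the isoprenoid branch point (log2 fold change 0.39, adjusted edgeR *p*-value 0.00865), and 0 lower, with a median of -0.11. The largest change of that list was the lower one of *hmgcra*, a gene for the rate-limiting reductase, which had 35.2, 34.5 and 46.3 CPM in *fdx1b*-/- larvae, against 64.1, 48.1 and 83.8 CPM in siblings. Its *fdx1b*-/- pools all lay below the sibling pools, but the log2 fold change of -0.77 did not pass the threshold (adjusted edgeR *p*-value 0.0288). At an unadjusted edgeR *p*-value below 0.05 there were 3 higher and 2 lower, beside 19.6% of all genes, and DESeq2 called *fdps* alone. Of 15 tested electron donors of cytochromes P450, 0 were called by edgeR, and 4 had adjusted *p*-values below 0.05 (3.89% of all genes), 3 of them higher (*cyb5r1*, *cyb5r3* and *pgrmc1*, log2 fold changes of 0.32 to 0.37) and 1 lower. The lower one was *porb*, a P450 oxidoreductase, the kind of enzyme that feeds Cyp17a2. It had 100.4, 93.9 and 97.3 CPM in *fdx1b*-/- larvae, against 118.6, 139.2 and 122.8 CPM in siblings, with a log2 fold change of -0.38 (adjusted edgeR *p*-value 0.0115), just outside the threshold. A locus named POR, the other P450 oxidoreductase on the list, had a log2 fold change of -0.08 (adjusted edgeR *p*-value 0.492). Those of *fdx1* and *fdxr*, the latter a ferredoxin reductase, were 0.06 and -0.09 (adjusted edgeR *p*-values 0.666 and 0.575). The pools of POR, *fdx1* and *fdxr* overlapped. The Wald test of DESeq2 called *porb*, *cyb5r1*, *cyb5r3* and *pgrmc1* (4.45% of all genes). At an unadjusted edgeR *p*-value below 0.05 there were 6 higher and 1 lower among the 15 (19.6% of all genes).

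The transcript of the disrupted gene itself did not separate the genotypes. *fdx1b* (ENSDARG00000038956) had 0.803 ± 0.151 CPM in *fdx1b*-/- larvae and 0.608 ± 0.0630 CPM in siblings (SD, n = 3 each), with a log2 fold change of 0.38 (adjusted edgeR *p*-value 0.421), so exon counts gave no check of the labels. Of 14 tested genes of the stress axis and cortisol response, edgeR called 1 higher and 2 lower, beside 1.12% of all genes. The cortisol-responsive genes *fkbp5* and *klf9* had log2 fold changes of -2.31 and -1.19, and *pomca*, the ACTH precursor, of 1.04 (adjusted edgeR *p*-values 0.00029, 8.55e-05 and 0.00011). *tsc22d3* and *per1a* of the same list had -0.29 and -0.22 and were not called by edgeR (adjusted edgeR *p*-values 0.0312 and 0.0478). The Wald test of DESeq2 called 1 of the 14 higher and 3 lower, *tsc22d3* among the latter, and gave no adjusted *p*-value for 4. It called 4.45% of all genes to which it gave one. At an unadjusted edgeR *p*-value below 0.05 there were 1 higher and 6 lower, beside 19.6% of all genes.

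Markers of other tissues were set beside the changes of *star* and *hsd20b2*. The summed level of 7 tested markers of chromaffin cells, which lie among the steroid-producing cells of the interrenal, was 72.9 to 77.3 CPM in *fdx1b*-/- larvae and 73.2 to 78.4 CPM in siblings. The defining markers *th* and *dbh* were present in all pools, and *pnmt*, also on the list, had no locus in the count table. The summed level of 7 tested loci matched to 5 pronephros markers was 330 to 349.5 CPM in *fdx1b*-/- larvae and 322.4 to 325.5 CPM in siblings. Most of it came from *cdh17* (mean 194 CPM in *fdx1b*-/- larvae, 175 in siblings) and *slc20a1b* (89.0 and 88.9 CPM). The symbols *slc20a1a* and *pax2a* were matched without their paralog letter, so the loci include *slc20a1b* and loci named only PAX2. The summed level of 6 tested gonad markers was 56.8 to 60.7 CPM in *fdx1b*-/- larvae and 62.2 to 71.4 CPM in siblings. In the chromaffin, pronephros and gonad lists edgeR and DESeq2 called 0 genes, DESeq2 giving no adjusted *p*-value for 4 of the 6 gonad markers. Over all genes edgeR called 1.12%, and DESeq2 4.45% of those to which it gave an adjusted *p*-value. At an unadjusted edgeR *p*-value below 0.05 the numbers were 0 of 7, 2 of 7 and 1 of 6, beside 19.6% of all genes. The summed level of 6 liver markers was 5276 to 5450 CPM in *fdx1b*-/- larvae and 3152 to 4011 CPM in siblings. Of these 6, edgeR called 1, *apoa1a* (log2 fold change 1.33), and DESeq2 3, all higher. At an unadjusted edgeR *p*-value below 0.05 there were 4 higher and 0 lower among the 6. *fabp10a* had a log2 fold change of -0.12 with overlapping pools. The part of the tissues behind the chromaffin, pronephros, gonad and liver markers in the changes of *star* and *hsd20b2* was not tested.

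For each of the 5 genes the 3 most similar patterns were looked up among 3722 or 3723 genes, those named in the study's supplementary tables with a mean of at least 1 CPM, by the root mean square difference of log2 CPM over the 6 libraries after centring. The study's table for *fdx1b*-/- larvae is ordered by the outcome of this comparison and lacked *cyp11a1* and *hsd11b2*. The genes compared, and their median distances, therefore come from a set partly selected by the difference between the genotypes. For *hsd20b2* these were *agxtb*, *si:dkey-247k7.2* and *aglb*, at 0.0466, 0.0471 and 0.0594. *agxtb* belongs to the alanine-glyoxylate aminotransferases and *aglb* to the glycogen debranching enzymes. For *cyp17a2* the nearest was *soat2*, which esterifies cholesterol, at 0.0689, followed by *znrf2a* and *slc39a8* at 0.102 and 0.107. For *hsd11b2* they were *upb1*, *ndufb8* and *mapk14a* at 0.0217 to 0.0254. For *star* they were a locus named Metazoa_SRP, a KRT18 locus and *mpdu1a*, at 0.0493 to 0.0508. For *cyp11a1* even the nearest gene, *si:dkey-79f11.7*, was 0.142 away. The median distance of all genes compared was between 0.160, for *hsd11b2*, and 0.409, for *hsd20b2*. Likeness over 6 libraries of 2 genotypes is a description, and many genes that share a direction come close by it.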

How the data were processed

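Total RNA from whole larvae was depleted of ribosomal RNA and sequenced with a strand-preserving kit. Reads were aligned by the authors to GRCz10 using STAR (version 2.4.0i in the submitters' processing notes), who counted uniquely mapped reads per Ensembl locus with their own script. The deposited values are raw exon counts per gene, without normalization, and the exon length of each gene. Whether counting used the strand is not given in the sources used here, so reads of overlapping antisense genes cannot be told apart. Intron counts were not used here.

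The genotypes were compared on these counts by edgeR 4.0.16 in R 4.3.3 (TMM factors, filterByExpr, quasi-likelihood test without covariates, Benjamini-Hochberg adjustment over all 26544 genes tested). Groups and replicate numbers came from the labels. p-values measure the spread between pools. CPM used TMM-scaled library sizes, and SEs were derived from the F statistic. Pair ratios used 0.5 added to each count. Alternatives were the size factors and the Wald test of DESeq2 1.42.0, upper-quartile factors, other low-count filters, a robust fit, the replicate number as a block, a looser threshold, each library left out in turn and, added after seeing the data, thinning to the smallest library and summing both CYP11A1 loci. The genes named are the 5 genes, members of the lists past the threshold or next to their steps, and the 3 nearest patterns of each. Exceptions chosen after their values were seen are *cyp17a1*, *hsd17b1*, *mc2r*, *cyp21a2*, *cyp11c1*, *hsd11b1la*, *fabp10a*, *sox9a*, *piwil1* and *cdh17*. Also named outside that rule are *tsc22d3*, *per1a*, *sult1st6*, the disrupted gene *fdx1b* and the tissue markers *th*, *dbh*, *pnmt* and *slc20a1b*. The 5 genes and the gene lists were chosen with earlier results of these data known. Symbols came from the study's tables (*star* in both of them, *cyp17a2* and *hsd20b2* in the one ordered by the outcome of this comparison, *cyp11a1* and *hsd11b2* in the other) and from a gene name table, which matched 25925 of 31388 identifiers and gave the same symbols for all 5. A list symbol ending in a paralog letter that matched no locus was matched without that letter, so lists can hold other paralogs of a named gene. No other locus had counts identical to those of any of the 5 genes. The script was tested on simulated data with known changes. 3 counts, taken as the floor, correspond to between 0.0598 and 0.165 CPM, and intervals and floors cover counting error only.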

Additional observations from a re-analysis of the deposited data

How the results depend on the processing

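*hsd20b2* kept its call under all 9 alternative settings and all 6 fits without 1 library. *star* kept its direction throughout. It missed the threshold with the replicate number as a block (log2 fold change 0.58, adjusted *p* = 0.0197 by edgeR) and after thinning all libraries to the smallest (0.57, adjusted *p* = 0.0113), and in 4 of the 6 fits without 1 library, over which it ranged from 0.55 to 0.65 (adjusted *p* 0.00268 to 0.0383). *cyp17a2*, *hsd11b2* and *cyp11a1* kept their direction and passed in no setting that gave them a value. *cyp17a2* came nearest, with adjusted *p*-values of 0.0414 to 0.0962 by edgeR over the other settings, and DESeq2 gave it and *cyp11a1* no adjusted *p*-value. *cyp11a1* gave no value with 10 counts required in every sample or after thinning, where the filter on low counts removed it. The number of genes called was 296, against 883 with the Wald test of DESeq2, 984 at the looser limit of 0.05, and 109 to 622 without 1 library (the most without sibling replicate 3). The log2 ratio of *star* to *cyp11a1* ranged from -0.10 to 0.39 without 1 library, that of *star* to *cyp17a2* from -0.26 to 0.06 and that of *cyp11a1* to *cyp17a2* from -0.51 to 0.16. Each changed sign without sibling replicate 1 (-0.0985, 0.0575 and 0.156); the cause was not tested. Same-numbered pools had correlations of deviations of -0.14, -0.14 and 0.09, within the range of differently numbered pools (-0.16 to 0.22). Whether same-numbered pools were collected together is not given in the sources used here, and these correlations cannot decide it. The replicate block left 202 genes called and changed no other call among the 5 genes. With 3 pools a group and at most 23 reads per pool, depth limits *cyp11a1* most.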

Other observations

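Cytosolic sulfotransferases conjugate steroids, bile alcohols and foreign compounds for excretion, and form another route by which steroids are cleared beside that of *hsd11b2* and *hsd20b2*. Of 18 tested genes of this family, 1 was called higher in *fdx1b*-/- larvae and 0 lower by edgeR, with a median log2 fold change of 0.17, beside 1.12% of all genes called. At an unadjusted edgeR *p*-value below 0.05 there were 6 higher and 2 lower, beside 19.6% of all genes, and DESeq2 called 2 higher and 0 lower, beside 4.45% of all genes to which it gave an adjusted *p*-value. The called gene was *sult3st4*, with 6.34, 5.58 and 4.64 CPM in *fdx1b*-/- larvae, against 1.53, 1.65 and 3.03 CPM in siblings. All *fdx1b*-/- pools lay above the sibling pools, and the log2 fold change was 1.39 (adjusted *p* = 0.00698 by edgeR). *sult1st6* had a log2 fold change of 0.29 with an adjusted *p*-value of 0.0270 by edgeR, which did not pass the threshold, and was called by DESeq2. Of 10 tested cytochromes P450 of sterol breakdown, 0 were called by edgeR, 0 by DESeq2, which gave no adjusted *p*-value for 3 of them, 2 were higher at an unadjusted edgeR *p*-value below 0.05, and 0 had adjusted *p*-values below 0.05, and their median log2 fold change was 0.10.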
